A study of Bos taurus with 2 samples.

Results

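The haemoglobin and erythroid genes described here are 8 genes that serve the red blood cell: HBA, HBB, HBG, HBM, HBE4 and HBQ1, which encode globin chains, ALAS2, the first enzyme of haem synthesis in red cell precursors, and AHSP, a chaperone of free alpha chains. They were chosen by name, as probes whose gene name in the files, or whose RefSeq entry under its present symbol, is one of the 8. This gave 15 of the 43653 gene probes of the array. Mammary tissue was taken at slaughter from adult Chinese Holstein cows in late lactation, 3 with clinical mastitis and 3 without, none of which had been injected with bovine somatotropin. Antibiotics were given to the cows with mastitis only, and hence disease and drug cannot be told apart. The files hold 1 array labelled mastitis and 1 labelled normal, both single colour (Cy3) on a common slide and in a common scan, and although the methods describe specimens as hybridized one by one, the sources do not say which cow each array holds. With 1 array per condition there is no replicate error and no p-value.

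Haemoglobin carries oxygen as a tetramer of alpha-like and beta-like chains, each holding a haem group. The chains are encoded in separate clusters, and within a cluster different genes are used in the embryo, the fetus and the adult. Mature red cells of mammals have no nucleus but keep some messenger RNA, so that blood within a tissue sample adds globin message to its RNA. In tissue RNA, a change in the number of such cells and a change in RNA per cell cannot be told apart.

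The 75th percentile of the net signal (median pixel intensity of a spot minus the negative controls) was 210 with mastitis and 128 in normal tissue, and each array was divided by its own. Probes counted as well above background when their net signal exceeded 7.10 and 8.74, respectively, on a spot that the scanner software had located, which held for 70.2% and 67.0% of probes. The log2 ratio of a gene is mastitis over normal, averaged over its probes that passed on both arrays. There were 12473 such genes, with a median log2 ratio of -0.15. Replicate spots of 41 probes gave a pooled SD of 0.16 on the log2 scale and different probes of a gene one of 0.44. Both are technical and leave out differences between cows. On the tissue check, the luminal epithelial genes KRT8, KRT18, EPCAM, CSN2 and CSN3 were well above background on both arrays, and LALBA on the normal array alone.

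Of the 8 genes, 6 were measured on both arrays, and these split evenly. HBB, HBG and HBM were at least 2-fold higher with mastitis, whereas HBA, AHSP and HBQ1 were within 2-fold and none was at least 2-fold lower. The share of all genes past 2-fold was 2.29% in the higher direction and 9.12% in the lower. The other two, HBE4 and ALAS2, passed the background threshold with mastitis but not in the normal tissue. The median log2 ratio of the 6 genes was 1.24, beside -0.15 over all genes.

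**Figure D1:**
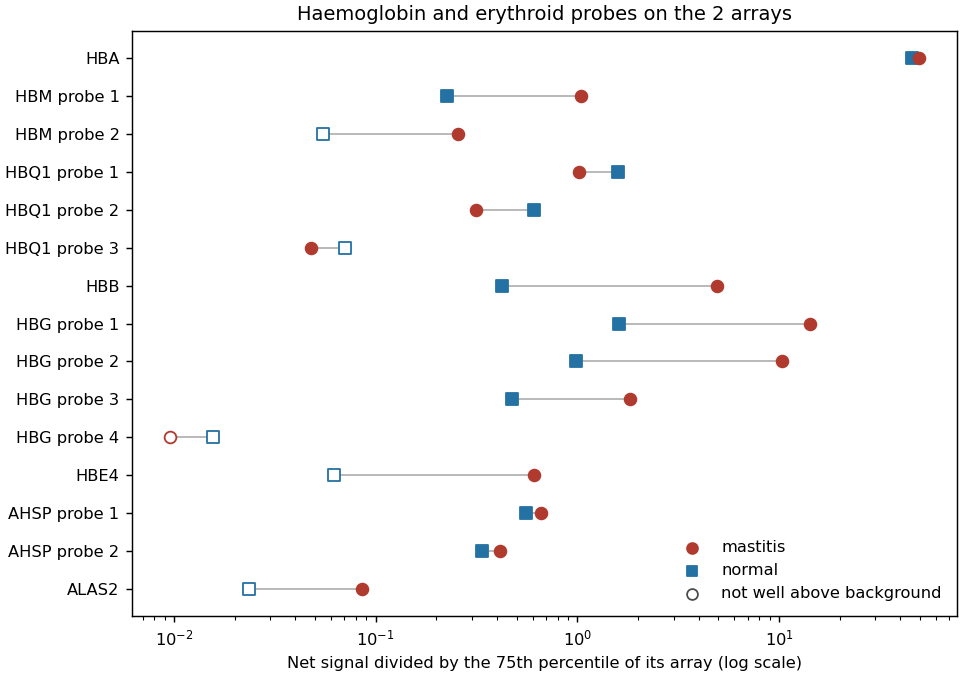
Net signal divided by the 75th percentile of its array (horizontal axis, log scale) for the 15 probes, with circles for the mastitis array and squares for the normal array. Open symbols are not well above background. The pairs of HBA and AHSP nearly coincide, those of HBB, HBG probes 1 to 3, HBM and HBE4 lie far apart with mastitis on the right, and the HBQ1 pairs lie the other way round.

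The adult chains of haemoglobin did not move together. HBA, the adult alpha chain, gave a net signal of 10391 with mastitis and 5857 in normal tissue, which are 49.5 and 45.8 times the 75th percentile of each array. Its log2 ratio was 0.11, a 1.08-fold difference that is smaller than the pooled SD over probes. HBB, the adult beta chain, had net signals of 1029 and 54, or 4.90 and 0.42 times the 75th percentile. HBB was therefore 11.6-fold higher on the mastitis array, with a log2 ratio of 3.54, and only 2 of the 12473 genes had a higher one. The log2 ratios of HBB and HBA differed by 3.43, many times the pooled SD over probes. Each of these genes rests on a single probe. No pixel of either spot was saturated. The HBA probe lists 2 Ensembl transcripts as targets in the file, and no probe was named for HBA1, the neighbouring alpha gene, so that this signal may hold both copies. Probes differ in how strongly they bind, and hence the signals of HBA and HBB give no ratio of alpha to beta message.

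HBG and HBE4, of the fetal and embryonic beta-like genes, were also higher with mastitis. HBG, the fetal chain of cattle, had 4 probes. The brightest gave 2975 with mastitis and 207 in normal tissue (8.76-fold), the next 2161 and 126 (10.5-fold) and the third 385 and 61 (3.85-fold). All 3 were clearly higher on the mastitis array, and their mean log2 ratio was 2.82 (SD over probes 0.77), or 7.06-fold, the 6th highest of all genes. The fourth probe, designed on an expressed sequence tag of embryonic tissues, had a net signal of 2 on both arrays and was not well above background on either. HBE4, an embryonic epsilon chain, had net signals of 128 and 8. It was not well above background on the normal array, and was higher on the mastitis array by at least 8.67-fold, where the bound sets its signal against the lowest one well above background on the normal array, a net signal of 9.

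The probes of the other beta-like genes were dim on both arrays. In the RefSeq annotation the cluster runs in the order HBE1, HBE4, HBB, HBE2 and HBG. HBE1, a further embryonic gene, was dim, with a net signal of 10 on each array for its RefSeq probe and a log2 ratio of -0.88 over 2 probes (SD 0.23). HBE2 had a net signal of 1 on each array. A probe described as a fetal beta-like haemoglobin without a gene symbol of its own had net signals of 15 and 10, with a log2 ratio of -0.13, and another described as part of haemoglobin beta had 2 and 4, below the threshold on both arrays. The probes that carried the beta-like difference were thus those of HBB, HBE4 and the 3 RefSeq probes of HBG. Beta-like genes are close in sequence, and how far these probes bind each other's message was not tested.

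The minor alpha-like genes went different ways. HBM, the mu chain, had net signals of 220 and 29 at its brighter probe, a 4.62-fold difference with a log2 ratio of 2.21, the 20th highest of all genes. Its other probe had 54 and 7, and was at least 3.66-fold higher as the normal spot was not well above background. Both probes of HBM therefore pointed the same way. HBQ1, the theta chain, had net signals of 215 and 203 at one probe and 66 and 78 at another. After scaling these lay 1.55-fold and 1.94-fold lower on the mastitis array, with a mean log2 ratio of -0.79 (SD over probes 0.23). The third HBQ1 probe was at the threshold, with net signals of 10 and 9. HBZ, the embryonic zeta chain and not one of the 8 genes, was bright on both arrays, with net signals of 2664 and 2682 and a log2 ratio of -0.72. In the RefSeq annotation the alpha cluster runs in the order HBZ, HBM, HBA, HBA1 and HBQ1, so that HBM stood apart from the genes on both sides of it. HBZ and HBA rest on 1 probe each, and the HBZ probe is described only as an uncharacterized protein. How far the alpha-like probes bind each other's message was not tested.

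The partners of globin synthesis showed small differences or low signals. AHSP had net signals of 138 and 71 at one probe and 87 and 43 at the other. Its log2 ratio was 0.27 (SD over probes 0.04), or 1.21-fold higher on the mastitis array, which is less than the pooled SD over probes. ALAS2 had net signals of 18 and 3 at its only probe. Only the mastitis spot passed the threshold, by which ALAS2 was at least 1.22-fold higher, a bound set mainly by how dim the probe was.

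In falling order of log2 ratio the measured genes were HBB, HBG, HBM, AHSP, HBA and HBQ1. HBB exceeded HBG by 0.72 and HBG exceeded HBM by 0.61, both less than the SD of 0.77 over the HBG probes, so that HBG cannot be ranked against either neighbour. HBB exceeded HBM by 1.33, but each rests on 1 probe, so that this difference has no SD over probes of its own. HBM exceeded AHSP by 1.94. AHSP and HBA were 0.16 apart, less than the pooled SD over probes, and HBA exceeded HBQ1 by 0.91. The genes whose log2 ratio lay nearest to that of HBA included MATR3 and KIF13B, both at 0.11. This likeness is over 2 arrays, which give 1 ratio per gene.

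**Figure D2:**
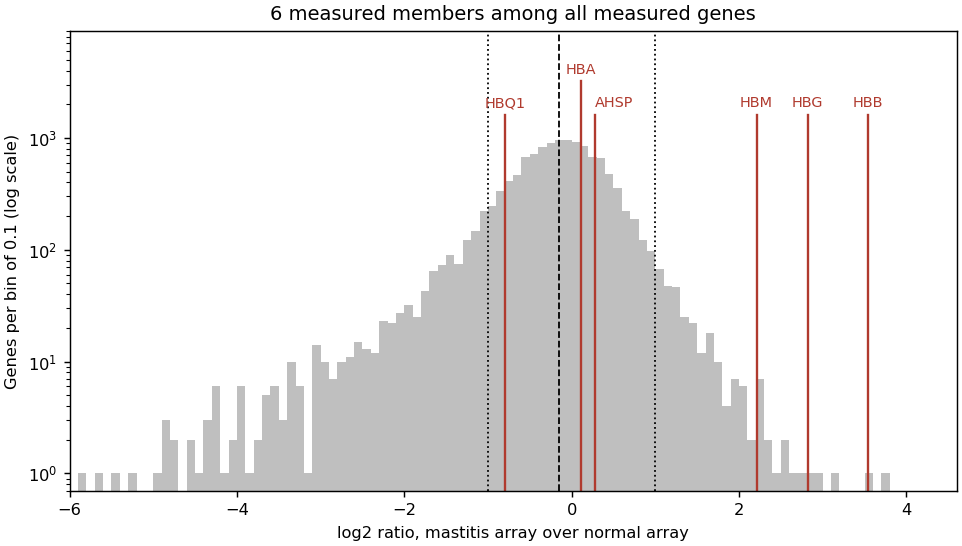
Number of genes per bin of 0.1 (vertical axis, log scale) by log2 ratio of mastitis array over normal array (horizontal axis, shown from -6), with the 6 measured genes as vertical lines whose heights carry no value. A dashed line shows the overall median (-0.15) and dotted lines show 2-fold. HBM, HBG and HBB lie in the sparse right tail, and HBQ1, HBA and AHSP in the bulk.

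The split was seen again under 14 other settings, which leave out the deposited table in its own row order. All of them re-read the same 2 arrays, so that they show dependence on processing only. HBB and HBA rest on 1 probe each, which passed every filter, so that filters and probe choice could not change their values. HBB ranged from 2.72 to 4.25 on the log2 scale, HBG from 1.94 to 3.53 and HBM from 1.16 to 2.92, and each was at least 2-fold higher in every setting that measured it. HBM dropped out where a net signal of 50 was required. HBA ranged from 0.09 to 0.83 and AHSP from 0.03 to 0.99, within 2-fold throughout. HBQ1 ranged from -0.80 to -0.08, where the value nearest to 0 came without scaling. Scaling moved the median of all genes from -0.15 to 0.12 with spike-in probes and to 0.57 without scaling. These scalings move every gene by 1 constant, so that the genes keep their places relative to the median by construction. As to all genes, 286 were past 2-fold in the higher and 1137 in the lower direction, against 432 and 831 with median scaling, 450 and 761 with quantile normalization, 616 and 701 with spike-in probes and 2524 and 331 without scaling.

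**Figure D3:**
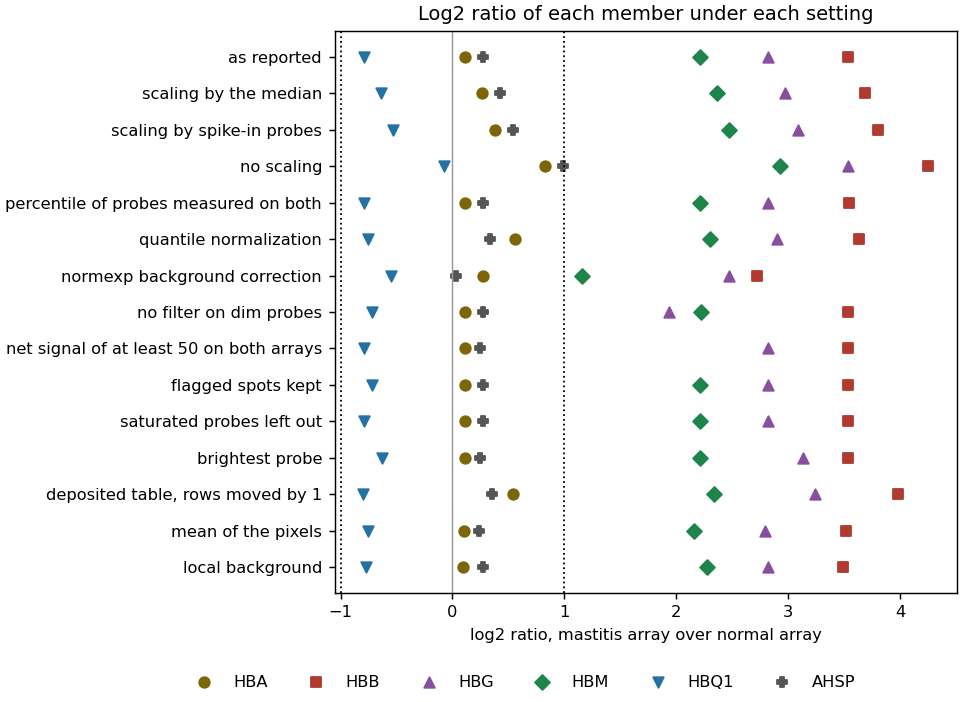
Log2 ratio of mastitis array over normal array (horizontal axis) of the 6 measured genes under the reported setting and 14 others (rows), with 1 symbol per gene. Dotted lines mark 2-fold. HBB, HBG and HBM lie to the right of the upper line in every row where they appear, and the other 3 genes lie between the lines. The deposited table in its original row order is not drawn.

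Neighbouring spots and spike-in probes show how far local or brightness-dependent shifts went on these arrays. Among the 8 nearest spots of each probe, the median log2 ratio lay between -0.48 and 0.39. The HBB spot had neighbours with a median of -0.05. This median was 0.39 for the brighter HBM probe, -0.47 for HBA and -0.48 for HBE4. Next to the HBE4 spot lay one with net signals of 15210 and 13885, bright on both arrays, and its part in the HBE4 signal was not tested. Spike-in RNA, added to the samples in known steps, was read by 7 probes whose net signals spanned 48 to 50809 and whose scaled log2 ratios lay between -0.49 and -0.14. The HBA signals fall inside this span, as do those of HBB, although its normal signal of 54 is near the lower end. The normal signals of HBM (29 and 7), HBE4 (8), ALAS2 (3) and the dimmer AHSP probe (43) lie below the span. So do the mastitis signal of ALAS2 (18) and both signals of the third HBQ1 probe (10 and 9) and the fourth HBG probe (2 and 2). The spike-in probes thus do not cover brightness-dependent shifts at those signals.

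Apart from AHSP, genes that mark red cells beside globin gave low signals. Of 12 defining markers, 4 were measured on both arrays (HBA, HBB, AHSP and EPB42), 2 on the mastitis array alone (ALAS2 among them), 2 on the normal array alone (KLF1 among them), and SLC4A1, RHAG, GATA1 and HEMGN on neither. SLC4A1, the anion exchanger of the red cell membrane, had a highest net signal of 5 on each array, and GATA1, the main transcription factor of red cell precursors, 4 and 3. EPB42, a protein of the membrane skeleton, had a log2 ratio of -0.94 (SD 0.32). ANK1, which anchors that skeleton, passed the threshold with mastitis only, at a highest net signal of 14 against 9, too dim for a fold.

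The wider red cell lists stayed close to the rest of the array in their median. Of 105 other genes of globin, haem, erythroid control, iron and the red cell body, 72 were measured on both arrays, of which 63 lay within 2-fold, 4 above it and 5 below it. Over all genes, 2.29% lay past 2-fold in the higher and 9.12% in the lower direction. The share of the 72 was thus larger above 2-fold and smaller below it. Their median log2 ratio of -0.21 lay near the -0.15 of all genes. The 4 higher genes were KIT, the receptor of stem cell factor (3.11-fold), TMOD1, which caps actin filaments (2.61-fold), CYGB, a globin of fibroblasts (2.35-fold, SD of the log2 ratio 0.12), and CA2, a carbonic anhydrase (2.31-fold). KIT, TMOD1 and CA2 rest on 1 probe each. All of the 4 also have roles outside the red cell.

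Within these lists, haem synthesis genes were all within 2-fold. The housekeeping enzyme ALAS1, the counterpart of ALAS2 in other cells, was level at -0.01 on the log2 scale (SD 0.01), and the brighter of its 2 probes read 1590 and 969. UROS, the highest of the 7 measured, had a log2 ratio of 0.75. FECH, which inserts the iron that completes haem, was on neither array well above background. Among 10 measured erythroid factors, NFE2 was 4.29-fold lower, from net signals of 143 and 374, while TAL1 (-0.78) and GFI1B (-0.33) were within 2-fold on the log2 scale. KLF1, the activator of adult beta globin, was well above background on the normal array alone and had highest net signals of 2 and 9.

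Erythropoietin itself (EPO) did not pass the background threshold, and its receptor gene EPOR had a log2 ratio of -0.63. STAT5A and STAT5B, which relay the signals of erythropoietin and of prolactin, were 2.15-fold and 3.50-fold lower. Of 14 genes of iron supply, none was at least 2-fold higher, and the ferrireductase gene STEAP3 (2.22-fold) and the transferrin gene TF (3.09-fold, SD of the log2 ratio 0.84) were lower. TFRC, the transferrin receptor, had a log2 ratio of -0.80 and SLC25A37, the iron importer of mitochondria, 0.24. Of 17 measured red cell enzymes, CA2 alone was at least 2-fold higher. The log2 ratios of PRDX2 (0.38), CAT (0.30), BLVRB (-0.15) and BPGM (-0.22) were small, and CA1, another carbonic anhydrase, was well above background on neither array. ALOX15, a lipoxygenase of maturing red cells and also of white cells, read 3 with mastitis and 273 in normal tissue, at least 56.0-fold lower. The 5 other globins measured had a median log2 ratio of -0.72, and myoglobin (MB) had 0.26.

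**Figure D4:**
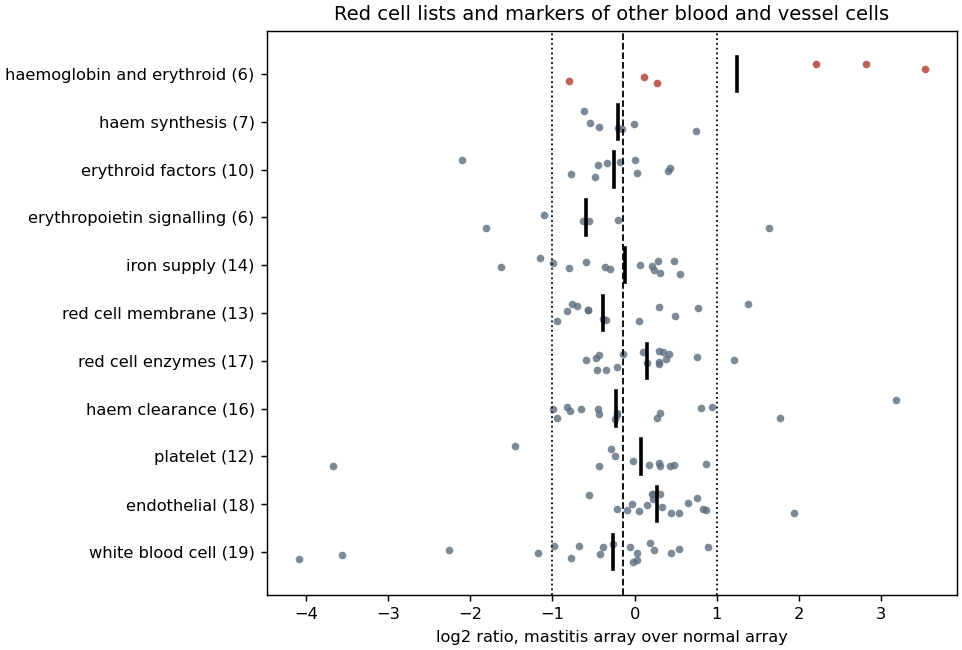
Log2 ratio of mastitis array over normal array (horizontal axis) of every gene measured on both arrays in 11 lists, with the number measured in brackets. Each point is a gene, moved at random up or down within its list, thick bars give list medians, a dashed line the overall median (-0.15) and dotted lines 2-fold. The haemoglobin and erythroid genes have a median of 1.24, and the medians of the other 10 lists drawn lie between -0.60 and 0.27. The other globins, the luminal markers and the liver plasma proteins are not drawn.

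Genes that handle released haemoglobin and haem were mixed. CD163, the macrophage receptor that takes up haemoglobin bound to haptoglobin, was 3.40-fold higher with mastitis, with net signals of 117 and 21. CD5L, a secreted product of macrophages that was placed on the same list, was 9.06-fold higher. These were the only ones of 16 measured genes that were at least 2-fold higher. HMOX1, which degrades haem, had a log2 ratio of 0.94 and the iron exporter gene SLC40A1 0.81. By contrast, HP (haptoglobin) and HPX (haemopexin), the plasma carriers of haemoglobin and haem, had log2 ratios of -0.94 and -0.99. Whether these values bear on the globin genes was not tested.

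Markers of other blood and vessel cells differed less than HBB, HBG and HBM did in the higher direction. Of 18 measured endothelial markers, SOX18 was 3.83-fold higher and the other 17 were within 2-fold, with a median log2 ratio of 0.27, PECAM1 at 0.76 and CDH5 at -0.09. Their summed signal, taking the brightest probe of each gene well above background, was 88.2 times the 75th percentile on the mastitis array and 78.8 times on the normal array. Of 19 white blood cell markers, none lay above 2-fold and 4 lay below it, namely CXCR1, ELANE, CSF3R and MS4A1, and PTPRC, the pan-leukocyte marker, had a log2 ratio of 0.19. Their summed signals were 123 and 141. The brightest of them was CD4, with net signals of 7704 and 7532 on 1 of its 5 probes (log2 ratio -0.68). These sums therefore depend much on CD4 and give no direction for white blood cells as a whole. Of 12 measured platelet markers, none was at least 2-fold higher and 2 were at least 2-fold lower, GP1BA by 12.7-fold. ITGA2B had a log2 ratio of -0.02, and the defining genes PF4 and PPBP were well above background on neither array. P2RX1 passed the threshold on the normal array alone, with highest net signals of 3 and 81, and was at least 16.6-fold lower with mastitis. The summed signals of the platelet list were 44.8 and 46.2, and its brightest gene was CD9, with net signals of 4383 and 3549. The milk and luminal markers had summed signals of 233 and 3578, and a median log2 ratio of -1.46. Of those measured on both arrays, GLYCAM1, PAEP and CSN2 were lowest (log2 ratios of -11.27, -10.69 and -7.53) and KRT18, CLDN4 and CDH1 highest (0.97, 0.67 and 0.38). The SD over probes was 3.50 for PAEP and 2.21 for CSN2, and GLYCAM1 rests on 1 probe. Of the 6 measured genes for plasma proteins of the liver, TTR was 2.14-fold higher and FGG 19.6-fold lower, and ALB was well above background on neither array. The part of blood content, vessel content or epithelial content in the globin values was not tested.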

How the data were processed

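The authors deposited 1 scanner file per array. Per the file headers, these are Agilent bovine oligonucleotide arrays read at 532 nm with GenePix Pro 6.1, and intensity is given per spot, unscaled, less the average of the negative controls. The labels name Agilent Feature Extraction and the methods an Affymetrix chip, which the layout of the files does not show. The deposited percent of saturated pixels, signal-to-noise score and flag of each spot were also read. The deposited series table holds log2 values of unstated scaling. Its mastitis values tracked the scanner signals poorly by row name (Spearman rho 0.10 over probes) and fully once rows were moved by 1 probe (1.00). It served as an alternative.

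Spots of a probe were averaged, leaving out controls and keeping saturated spots. The background threshold was 2.6 SD above the mean of 153 negative controls. Signals were divided by the 75th percentile and taken to log2. Probes were named through RefSeq (ARS-UCD2.0, names and gene order only): 28562 matched on accession, 5113 on symbol and 138 on a synonym, while 8452 had no name and 1388 only that of the file. Alternatives were other scalings, quantile normalization, normexp (limma 3.58.1, R 4.3.3, offset 50), filters, probes and fold thresholds. Python 3.11.15, numpy 2.4.6, pandas 2.3.3 and matplotlib 3.10.9 were used, and the scripts were tested on simulated data.

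The genes and lists were chosen with earlier results of these data known. Named genes were the 8 genes with every probe, genes of each list at least 2-fold apart (beyond 6 such genes, the 3 highest and 3 lowest), the 3 genes nearest to HBA in log2 ratio, and a preset set of red cell, haem and marker genes. SLC40A1, UROS, ALOX15, EPO, ALB, HEMGN, CD4, CD9 and P2RX1 were named outside this rule, after their values were seen. The same holds for the tissue check genes KRT8, EPCAM, CSN3 and LALBA. Some genes that the rule names are not reported here. As each condition has 1 array, no test was run, and the number of arrays limits the precision.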

Additional observations from a re-analysis of the deposited data

How the results depend on the processing

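The count of 3 genes at least 2-fold higher was 5 without the filter on dim probes, which adds HBE4 and ALAS2, and 2 where net signals had to reach 50, which leaves out HBM. Thresholds of 1.5-fold and 3-fold both left 3. The median log2 ratio of the measured genes, 1.24 as reported, was 1.96 without scaling, 1.90 with dim probes kept, 0.72 with the normexp background correction and 0.24 where net signals had to reach 50, since that setting drops HBM. The count of 4 of 72 other red cell genes at least 2-fold higher was 7 with spike-in scaling, 21 without scaling and 1 with normexp. Over all 12473 genes, these settings gave 616, 2524 and 97, respectively. With dim probes kept it was 8 of 94 other red cell genes, beside 474 of all 17376 genes. In the deposited table taken by its own row names, 2 genes were at least 2-fold higher, HBQ1 (log2 ratio 4.35) and AHSP (2.95), HBB fell below 2-fold (0.56), HBG and HBM turned to -0.01 and -7.56, the median was 0.72 and the other red cell genes numbered 7. With its rows moved by 1 probe, an alternative chosen after seeing the data, HBG and HBM were 3.24 and 2.34. Also chosen after seeing the data were the mean of the pixels and the local background, which kept the count of 3. Over all genes, the counts at least 2-fold higher and lower were 286 and 1137 as reported, and 97 and 407 with normexp, 474 and 4149 with dim probes kept and 1536 and 1436 in the deposited table by its own row names. The cause of the changes with normexp was not tested. The normal signals of HBE4, ALAS2 and the second HBM probe lay below the background threshold, so that their fold has only a lower bound. No paired analysis was possible because each condition has 1 array.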
